A study of Homo sapiens with 24 samples.

Results

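The genes of 10 assembly factors of mitochondrial complex I were followed across all 24 samples of a study of the RPRD proteins. They are NDUFAF1, NDUFAF2, NDUFAF3, NDUFAF4, NDUFAF5, NDUFAF6, NDUFAF7, ECSIT, ACAD9 and TMEM126B, which are 10 of the 58138 gene names counted. The set was chosen by function and because NDUFAF3 had been seen at lower levels in these same data in groups given siRNA against RPRD1A. The level of NDUFAF3 in those groups is therefore a description and carries no test, whereas the other 9 genes, and NDUFAF3 in comparisons without those groups, were tested. The remaining groups of the same cell line were the reference side of that choice. The p-values of NDUFAF3 among them are therefore not independent of it. All 10 had enough counts to be tested in both cell lines.

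The study asks how the RPRD proteins, which bind the tail of RNA polymerase II, affect steady-state RNA. It has 12 groups of 2 samples, with replicate numbers 1 and 2 taken from the sample titles. HEK293T, a line from human embryonic kidney, was transfected with siRNAs for 48 h in 8 groups. Of these, control, RPRD1B_KD, RPRD2_KD and RPRD1B_RPRD2_KD do not name RPRD1A in their label, while RPRD1A_KD, RPRD1A_RPRD2_KD, RPRD1A_RPRD1A_KD and RPRD1A_RPRD1B_RPRD2_KD do. Flp-In T-REx 293 is also descended from 293 cells and carries an insertion site whose gene answers to tetracycline. Here FLP, labelled with no added gene, is called the parent and RPRD1B_FL the RPRD1B line, both without tetracycline, and FLP_TET and RPRD1B_FL_TET are the same lines after 48 h with it. The labels do not say whether RPRD1B_FL is 1 clone, nor what FL stands for. They also do not say whether the samples of a group came from separate cultures, so p-values measure only the spread between these samples, which may be technical. Reads came from QuantSeq 3′ REV libraries, which count the 3′ ends of polyadenylated transcripts. Levels are given as CPM, a gene's counts scaled to the library's total counts in genes. Each transcript gives reads at its 3′ end only, so no division by length was made, and levels are compared within a gene.

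Total counts in genes were 1817246 to 3135625 in HEK293T samples and 2342969 to 3531106 in Flp-In samples, so that 3 counts correspond to 0.85 to 1.65 CPM. In HEK293T cells the second RPRD1A_RPRD2_KD library stood apart on the first principal component, at 52.87 against -11.2 to 4.93 for the other 15 libraries. The vimentin gene VIM, expressed in 293 cells, was at 71.8 to 157 CPM in HEK293T and 312 to 391 CPM in Flp-In samples, and KRT18, a simple-epithelium keratin, at 14.9 to 36.7 and 95.3 to 124 CPM. The other 3 markers of 293 cells were low in HEK293T, with KRT8 at 1.57 to 6.14 CPM (38.6 to 60.3 CPM in Flp-In), the neurofilament gene NEFM at 4.81 to 20.8 CPM (0.676 to 3.73) and PAX2 at 0.545 to 5.22 CPM (2.56 to 9.62). The 6 blood and liver markers read (PTPRC, HBB, CD3E, ALB, APOA1 and TTR) had 0 or 1 count in every sample. UMOD and AQP2, of differentiated kidney, and the fibroblast gene DCN were at 0 throughout, while the fibroblast collagen gene COL1A1 was at 1.14 to 14.5 CPM. RPRD1A was at 149 and 165 CPM in the control, 69.7 to 103 CPM in the other groups whose label does not name it, and 14.6 to 27.9 CPM in the 4 groups whose label names it. The group labelled RPRD1A_RPRD1A_KD names RPRD1A at both positions. RPRD1B, which that label does not name, was at 14.4 and 8.06 CPM there, against 27.3 and 28.1 CPM in the control and 10.4 and 6.23 CPM in RPRD1B_KD.

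Complex I is the first enzyme of the respiratory chain. It passes electrons from NADH to ubiquinone through a peripheral arm and pumps protons through a membrane arm. Its many subunits are put together in modules with the help of assembly factors that are absent from the finished enzyme, and loss of either kind of protein is a known cause of mitochondrial disease. NDUFAF3 and NDUFAF4 bind each other and act early, on the module that binds ubiquinone. NDUFAF5 modifies an arginine of the subunit NDUFS7 of that module, and NDUFAF7 is an arginine methyltransferase. NDUFAF6 is needed for the part built around ND1. NDUFAF1, ECSIT, ACAD9 and TMEM126B form a complex that builds part of the membrane arm, and NDUFAF2, a paralog of the subunit NDUFA12, acts at a late step.

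NDUFAF3 (ENSG00000178057) is a short gene at chr3:49020459-49023495 on the plus strand of GRCh38 (GENCODE release 29). Its neighbours lie close. DALRD3, on the minus strand, overlaps it by 1835 bases, the microRNA gene MIR191 lies inside its span on the minus strand (chr3:49020618-49020709), and the last 1202 bases of NDUFAF3, with its annotated 3′ end, lie beyond DALRD3. IMPDH2, on the minus strand, lies 829 bases further on. RefSeq gives 4 starts for NDUFAF3. The 250 bases before the first of them (GRCh38.p14, chr3:49020202-49020451, plus strand) are shown because they precede the gene that, among the 10, had the widest range of group means in HEK293T cells. The capitals are the 33 bases shared with the microRNA gene MIR425, which is read from the opposite strand.

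NDUFAF3 upstream window: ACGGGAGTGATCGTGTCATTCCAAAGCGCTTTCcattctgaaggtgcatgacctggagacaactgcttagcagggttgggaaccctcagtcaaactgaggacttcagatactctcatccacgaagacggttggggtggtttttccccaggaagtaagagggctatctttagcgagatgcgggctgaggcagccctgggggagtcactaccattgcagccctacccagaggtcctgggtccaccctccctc

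Windows of 300 bases around start sites were available for 9 of the 10 genes (14 windows; NDUFAF6 had none in the table). On either strand the motif of NRF1, a factor known to act on genes of the respiratory chain, occurred in 2 of the 14 windows (ACAD9 and NDUFAF5) and in 5.78% of all 35116 windows. CCAAT occurred in 7 of the 14 (ECSIT, NDUFAF2, NDUFAF3, NDUFAF5 and TMEM126B) and in 34.6% of all windows, and GGGCGG in 10 of the 14 (ACAD9, ECSIT, NDUFAF1, NDUFAF2, NDUFAF3 and TMEM126B) and in 45.0%. Some genes have several windows, so the 14 are not independent. NDUFAF3 has 4, and the stretch printed above holds neither CCAAT nor GGGCGG on either strand.

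NDUFAF3 in the HEK293T groups comes first, because it is the gene for which the set was chosen. In the control it was at 141 and 195 CPM (replicates 1 and 2; mean 168 ± 37.8 CPM, SD, n = 2). In RPRD1A_KD it was at 83.6 and 127 CPM, 62.8% of the control mean. In RPRD1A_RPRD2_KD it was at 101 and 138 CPM, or 71.2%. Both samples of each group were below the corresponding control sample, and the groups' ranges did not overlap that of the control. The lowest levels in the series were in RPRD1A_RPRD1A_KD, at 62.5 and 82.1 CPM (43.1% of the control), and in RPRD1A_RPRD1B_RPRD2_KD, at 55.0 and 78.8 CPM (39.8%). RPRD1A was at 13.5% and 16.9% of its control mean in these 2 groups and RPRD1B at 40.6% and 38.3%, while RPRD1B_RPRD2_KD had RPRD1A at 49.3% and RPRD1B at 28.0%. In RPRD1A_KD and RPRD1A_RPRD2_KD, where NDUFAF3 was higher, RPRD1A was at 12.9% and 12.1% and RPRD1B at 91.9% and 76.2%. On the log2 scale of the edgeR fit the differences from the control were -0.70 (SE 0.26) in RPRD1A_KD, -0.48 (SE 0.26) in RPRD1A_RPRD2_KD, -1.25 (SE 0.27) in RPRD1A_RPRD1A_KD and -1.36 (SE 0.27) in RPRD1A_RPRD1B_RPRD2_KD. The value in RPRD1A_RPRD2_KD depended on its libraries: it was -0.78 without replicate 2, the library that stood apart, and -0.24 without replicate 1. That in RPRD1A_KD was -1.02 without its replicate 2 and -0.46 without its replicate 1. These 4 comparisons share the same control samples.

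The groups whose label does not name RPRD1A were nearer the control. NDUFAF3 was at 115 and 173 CPM in RPRD1B_KD (85.6% of the control mean) and at 129.8 and 151 CPM in RPRD2_KD (83.5%). In RPRD1B_RPRD2_KD it was at 107 and 147 CPM (75.5%). Each of these ranges overlapped that of the control. RPRD1B_RPRD2_KD was also close to RPRD1A_RPRD2_KD (71.2%), and their samples overlapped. Every HEK293T group had the higher NDUFAF3 level in its replicate 2, by a median of 0.46 on the log2 scale (0.22 to 0.60), a pattern shared by 714 of the 8799 genes with a mean of 10 CPM or more (8.11%). Groups were therefore also set side by side within a replicate number. Among the replicate 1 samples NDUFAF3 was at 55.0 to 101 CPM in the 4 RPRD1A-labelled groups and at 107 to 141 CPM in the other 4. Among the replicate 2 samples it was at 78.8 to 138 and at 147 to 195 CPM, and the 138 CPM is that of the library that stood apart, without which the first range ended at 127 CPM. The 2 sets of groups did not overlap within either number, with log2 ratios of means of -0.70 and -0.64, but they overlapped when all 16 samples were pooled (55.0 to 138 CPM, median 82.9, against 107 to 195 CPM, median 144). Of the 8799 genes, 16 (0.182%) were lower in all RPRD1A-labelled samples within both numbers and 14 (0.159%) were higher. With the numbers pooled, 8 genes (0.0909%) were lower in all RPRD1A-labelled samples. Without the library that stood apart these counts were 22 (0.25%), 22 and 11 (0.125%). Since NDUFAF3 was chosen for this difference, its place among the 16 is no finding. None of the other 9 genes was among the 16 or the 14, with or without that library.

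**Figure D1:**
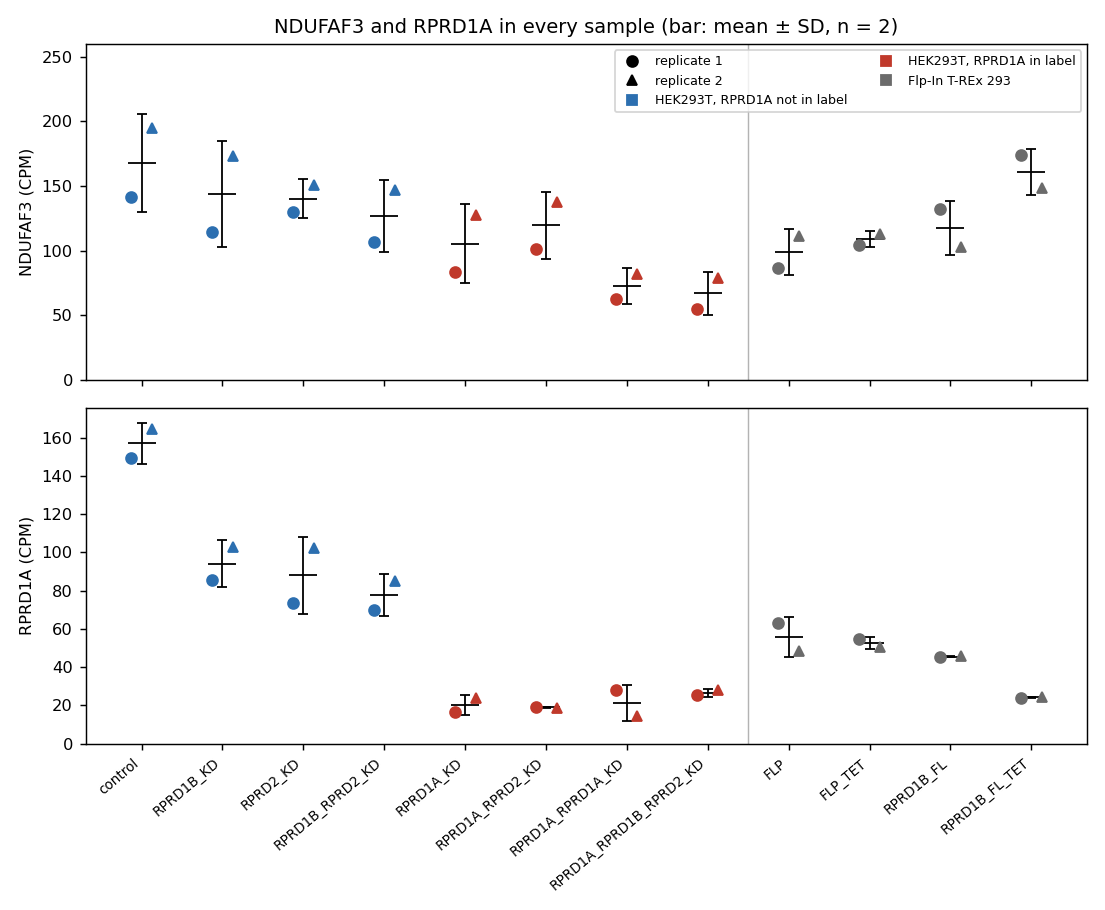
NDUFAF3 (top) and RPRD1A (bottom) in CPM in each of the 24 samples, by group, with replicate 1 as circles, replicate 2 as triangles and bars for the mean ± SD (n = 2). Within a replicate number the 4 RPRD1A-labelled HEK293T groups (red) are lower than the other 4 (blue) in both panels. In RPRD1B_FL_TET, of the other cell line, RPRD1A is at 24 and 24.3 CPM and NDUFAF3 at 174 and 148.5 CPM.

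Averaged over the groups, NDUFAF3 in the 4 RPRD1A-labelled groups differed from the other 4 by -0.70 on the log2 scale (SE 0.13; -0.78 to -0.62 over all alternative settings). The same contrast in the other 9 genes ran from -0.25 in NDUFAF1 to 0.19 in TMEM126B. None passed the test (edgeR's quasi-likelihood test with Benjamini-Hochberg adjustment over all 11834 genes; lowest adjusted p = 1), 0 had an unadjusted p under 0.05, and DESeq2 called 0. Across all genes this contrast called 8, or 0.0676%, and 4.56% had an unadjusted p under 0.05, so a count of 0 among 9 does not set these genes apart. The SE of the 9 differences lay between 0.09 (TMEM126B) and 0.16 (NDUFAF5). In the 4 single comparisons with the control, too, 0 of the 9 passed with edgeR or DESeq2 and 0 had an unadjusted p under 0.05. Over all genes the share called was 0.00845% in RPRD1A_KD and RPRD1A_RPRD2_KD and 0.0169% in RPRD1A_RPRD1A_KD and RPRD1A_RPRD1B_RPRD2_KD. The shares with an unadjusted p under 0.05 were 2.64%, 7.07%, 3.99% and 3.99% in the same order.

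NDUFAF4, the binding partner of NDUFAF3, was at 32.2 and 38.9 CPM in the control, 25.6 and 46.8 CPM in RPRD1A_KD, 31.5 and 29.2 CPM in RPRD1A_RPRD1A_KD, 41.8 and 30.0 CPM in RPRD1A_RPRD2_KD and 33.0 and 39.2 CPM in RPRD1A_RPRD1B_RPRD2_KD. These samples lie on both sides of the control, and the mean of the RPRD1A-labelled groups differed by -0.09 (SE 0.12) on the log2 scale. NDUFAF5 is the least abundant of the 10, at 7.34 to 19.8 CPM in HEK293T samples from 18 to 49 counts. It was at 9.82 and 16.3 CPM in the control, and its fitted differences ran from -0.69 in RPRD2_KD to 0.24 in RPRD1A_RPRD2_KD (0.54 without the library that stood apart), none past the test. NDUFAF7 was at 11.1 to 19.8 CPM and NDUFAF6 at 12.6 to 25.4 CPM in HEK293T samples, with differences of 0.12 (SE 0.13) and -0.07 (SE 0.16) in the RPRD1A-labelled groups.

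The 4 genes of the membrane-arm complex had group means that differed at most 1.42-fold (ECSIT) to 1.48-fold (ACAD9) in HEK293T cells. NDUFAF1, which binds ECSIT within it, was at 24 and 23.5 CPM in the control, 12.8 and 19.6 CPM in RPRD1A_RPRD1A_KD and 18.7 and 14.99 CPM in RPRD1A_RPRD2_KD. Both groups lay below both control samples, with log2 differences of -0.56 and -0.52 (-0.39 without the library that stood apart) that did not pass the test. So did RPRD1A_RPRD1B_RPRD2_KD (17.8 and 22.6 CPM) and, with no RPRD1A in the label, RPRD1B_KD (22.3 and 20.8 CPM) and RPRD2_KD (22.55 and 18.6 CPM). RPRD1A_KD, at 25.6 and 20.3 CPM, and RPRD1B_RPRD2_KD, at 27.7 and 19.45 CPM, spanned the control. ACAD9, a relative of the acyl-CoA dehydrogenases of fatty acid oxidation, was at 38.4 to 69.5 CPM and ECSIT at 37.4 to 64.1 CPM over the 16 HEK293T samples. TMEM126B, a membrane protein of the complex, was at 30.0 and 31.7 CPM in the control and at 34.9 to 42.9 CPM in the 8 RPRD1A-labelled samples. It was also above the control in RPRD1B_KD (39.8 and 37.4 CPM) and RPRD2_KD (36.6 and 41.4 CPM), and below it in RPRD1B_RPRD2_KD (29.5 and 28.4 CPM). NDUFAF2, the late factor, was at 44.2 and 53.4 CPM in the control and 36.8 to 54.2 CPM in the RPRD1A-labelled samples.

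Between the highest and the lowest group mean of HEK293T cells NDUFAF3 differed 2.51-fold and NDUFAF5 1.92-fold. The other 8 genes differed 1.33-fold (NDUFAF4) to 1.48-fold (ACAD9). Across both lines TMEM126B had the widest range of group means, 3.35-fold, since it was at 28.4 to 42.9 CPM in HEK293T and at 10.5 to 20.1 CPM in Flp-In samples. The lines also differ in other ways, such as the share of reads outside annotated genes (27.4% to 36.7% in HEK293T and 15.3% to 19.5% in Flp-In samples), so line and library preparation cannot be told apart. In these bulk samples, fewer cells with a transcript and less of it per cell cannot be told apart either.

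**Figure D2:**
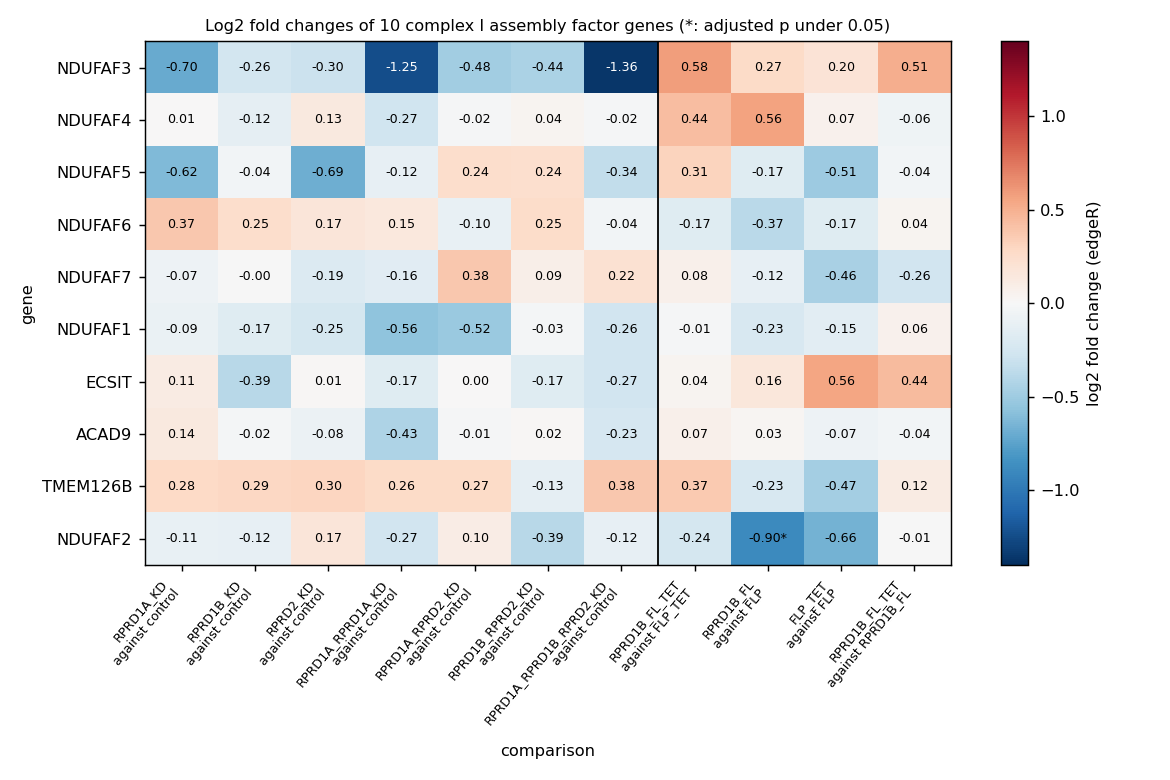
Log2 fold changes from edgeR of the 10 genes (rows) in the 7 knockdown comparisons with the control and 4 comparisons among the Flp-In groups (columns, to the right of the line), with an asterisk for an adjusted p under 0.05. NDUFAF3 is negative in all 7 knockdown comparisons, from -1.36 to -0.26, and so is NDUFAF1, from -0.56 to -0.03. All 7 share the same control samples, and NDUFAF3 was chosen for its low levels in the RPRD1A-labelled groups. 1 cell has an asterisk, NDUFAF2 in RPRD1B_FL against FLP (-0.90).

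NDUFAF3 was tested next in the 3 knockdown groups whose label does not name RPRD1A, against the same control samples. In RPRD1B_KD it differed from the control by -0.26 on the log2 scale (SE 0.26, edgeR adjusted p = 1), in RPRD2_KD by -0.30 (SE 0.26, edgeR adjusted p = 1) and in RPRD1B_RPRD2_KD by -0.44 (SE 0.26, edgeR adjusted p = 1). All 3 estimates were negative and none passed. The control was on the higher side when the gene was chosen, so these signs and p-values are not independent of that choice. The estimates moved with single samples: the first was -0.01 without replicate 1 of RPRD1B_KD and -0.04 without replicate 2 of the control, the second -0.08 and the third -0.23 without replicate 2 of the control. In each of these comparisons 0 of the 10 genes passed with edgeR or DESeq2 and 0 had an unadjusted p under 0.05. Over all genes the tests called 0.00845% in RPRD1B_KD and in RPRD2_KD and 0.0169% in RPRD1B_RPRD2_KD, and 3.46%, 3.84% and 2.51% had an unadjusted p under 0.05.

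The design also holds 3 pairs of groups whose labels differ by RPRD1B alone: RPRD1B_KD and control, RPRD1B_RPRD2_KD and RPRD2_KD, and RPRD1A_RPRD1B_RPRD2_KD and RPRD1A_RPRD2_KD. NDUFAF3 means were 144 against 168 CPM, 127 against 140.3 CPM and 66.9 against 119.5 CPM, so the groups with RPRD1B siRNA were lower in 3 of 3 pairs and, within each pair, in both replicate numbers. Averaged over them the log2 difference was -0.43 (SE 0.15), and -0.33 without the second RPRD1A_RPRD2_KD library. Both groups of the third pair are among those whose low NDUFAF3 chose the gene, so this average is a description. Over the 2 pairs without RPRD1A siRNA the difference was -0.20 (SE 0.18, unadjusted p = 0.294 and adjusted p = 1 from edgeR), which does not pass. RPRD1A_RPRD1A_KD was not paired with RPRD1A_KD, since its label does not name RPRD1B, although RPRD1B was low there. Whether the label gives its siRNAs in full is not known. NDUFAF3 means were 72.3 CPM in the former and 105 CPM in the latter.

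Of the other 9 genes, NDUFAF2 (-0.30, SE 0.12, unadjusted p = 0.0272 and adjusted p = 0.745 from edgeR) and ECSIT (-0.28, SE 0.12, unadjusted p = 0.0295 and adjusted p = 0.748 from edgeR) had an unadjusted p under 0.05 over the 3 RPRD1B pairs, a level reached by 6.42% of all genes. The test called 0 of the 9, as did DESeq2, and 0.0254% of all genes. Without the library that stood apart the differences of NDUFAF2 and ECSIT were -0.27 and -0.25. For RPRD2 the 3 matched pairs gave -0.09 for NDUFAF3 (SE 0.15), which was -0.19 without the library that stood apart and turned sign without replicate 2 of RPRD1A_KD or of RPRD1B_KD (0.015 and 0.014). Over the 2 of these pairs without RPRD1A siRNA it was -0.24 (SE 0.18, unadjusted p = 0.203 and adjusted p = 1 from edgeR). Over the 3 pairs 0 of the other 9 genes passed with edgeR or DESeq2 and 0 had an unadjusted p under 0.05, against 0.0169% and 3.85% of all genes.

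In the Flp-In cells NDUFAF3 was highest where the RPRD1B line had been given tetracycline. It was at 86.2 and 112 CPM in FLP, 104 and 113 CPM in FLP_TET, 132 and 103 CPM in RPRD1B_FL and 174 and 148.5 CPM in RPRD1B_FL_TET. Both RPRD1B_FL_TET samples lay above the 6 others, whose groups overlapped. RPRD1B was at 79.1 and 64.5 CPM in RPRD1B_FL_TET, 42.7 and 45.2 CPM in RPRD1B_FL, and 29.2 and 28.3 CPM in FLP_TET. RPRD1A was at 24 and 24.3 CPM in RPRD1B_FL_TET and 54.8 and 50.4 CPM in FLP_TET, and it fell by 1.11 on the log2 scale (SE 0.20, edgeR adjusted p = 0.00463). Without either FLP_TET sample the difference stayed at -1.06 and -1.15 but did not pass (adjusted p = 0.128 and 0.0691 from edgeR). Cell line, tetracycline and the RPRD1B level all differ between these samples and the RPRD1A-labelled HEK293T groups. Whether NDUFAF3 levels are related to RPRD1A levels was not tested.

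NDUFAF3 differed between RPRD1B_FL_TET and FLP_TET by 0.58 on the log2 scale (SE 0.18), with an unadjusted p of 0.00337 and an adjusted p of 0.147 from edgeR, which misses the threshold. It passed with a correction for the GC content of transcripts (0.64, edgeR adjusted p = 0.00536) and without the second RPRD1B_FL_TET sample (0.73, edgeR adjusted p = 0.0344). The longest NDUFAF3 transcript is 64.0% GC, above 95.4% of genes, and the correlation across genes of a library's deviation with GC was 0.57 and -0.13 in the 2 RPRD1B_FL_TET libraries and 0.31 and 0.44 in the 2 FLP_TET libraries. RPRD1B_FL_TET differed from RPRD1B_FL by 0.51 (SE 0.18, unadjusted p = 0.00885 and adjusted p = 0.788 from edgeR). Without tetracycline RPRD1B_FL differed from FLP by 0.27 (SE 0.18, edgeR adjusted p = 0.549). In the parent line tetracycline gave 0.20 (SE 0.18, edgeR adjusted p = 0.541), which turned to -0.14 with the GC correction. FLP libraries had GC correlations of -0.52 and -0.33. The effect of tetracycline on NDUFAF3 was larger in the RPRD1B line by 0.32 (SE 0.25, edgeR adjusted p = 0.991), so the lines were not shown to differ in it.

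NDUFAF2, whose gene spans chr5:60945129-61153037 on the plus strand, was the only one of the 10 called in any of the 15 comparisons. It was at 83.6 and 60.6 CPM in FLP, 43.4 and 32.3 CPM in RPRD1B_FL, 42.9 and 43.7 CPM in FLP_TET and 36.2 and 36.3 CPM in RPRD1B_FL_TET. The 2 FLP samples lay above the other 6, and the first of them stood well above the second. In RPRD1B_FL against FLP it fell by 0.90 on the log2 scale (SE 0.20, edgeR adjusted p = 0.0245), in a comparison that called 1.18% of all genes, with 0.954% lower. NDUFAF4 was the other of the 10 with an unadjusted p under 0.05 there, against 13.3% of all genes. The call was lost without the first FLP sample (-0.65, edgeR adjusted p = 0.432) and without the second RPRD1B_FL sample (-0.67, edgeR adjusted p = 0.258). FLP_TET differed from FLP by -0.66 (SE 0.20, edgeR adjusted p = 0.0708), a value that passed in 3 of 11 alternatives, and RPRD1B_FL_TET differed from FLP_TET by -0.24 (edgeR adjusted p = 0.782). The tetracycline effects of the lines differed by 0.65 (SE 0.29, unadjusted p = 0.0359 and adjusted p = 0.991 from edgeR).

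NDUFAF4 and ECSIT also varied among the Flp-In groups, with no difference past the test. NDUFAF4 was at 25.4 and 21.2 CPM in FLP, 23.6 and 22.8 CPM in FLP_TET, 27.4 and 40.6 CPM in RPRD1B_FL and 35.5 and 26.0 CPM in RPRD1B_FL_TET. It was higher in both samples of the RPRD1B line than in its parent at either state, by 0.56 without tetracycline (edgeR adjusted p = 0.293) and 0.44 with it (edgeR adjusted p = 0.551). ECSIT was at 45.2 and 55.2 CPM in FLP, 75.2 and 66.8 CPM in FLP_TET, 59.8 and 50.8 CPM in RPRD1B_FL and 84.5 and 58.5 CPM in RPRD1B_FL_TET. Its tetracycline differences were 0.56 in the parent (SE 0.20, edgeR adjusted p = 0.112) and 0.44 in the RPRD1B line (SE 0.20, edgeR adjusted p = 0.788). Both FLP_TET samples lay above both FLP samples, and the parent's difference passed when only these 2 groups were fitted (edgeR adjusted p = 0.0312). ECSIT transcripts are GC-rich too, at 61.8%. With tetracycline, RPRD1B_FL_TET against FLP_TET called 0 of the 10 genes with edgeR and with DESeq2 (1 at an unadjusted p under 0.05) and 1.11% of all genes (10.3%). FLP_TET against FLP likewise called 0 (2 at an unadjusted p under 0.05) and 122 of 11948 genes, or 1.02% (22.7%). RPRD1B_FL_TET against RPRD1B_FL and the difference of tetracycline effects called 0 with both tools, both of the 10 (2 and 1 at an unadjusted p under 0.05) and of all genes (0.0%, with 6.13% and 3.99% at an unadjusted p under 0.05).

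**Figure D3:**
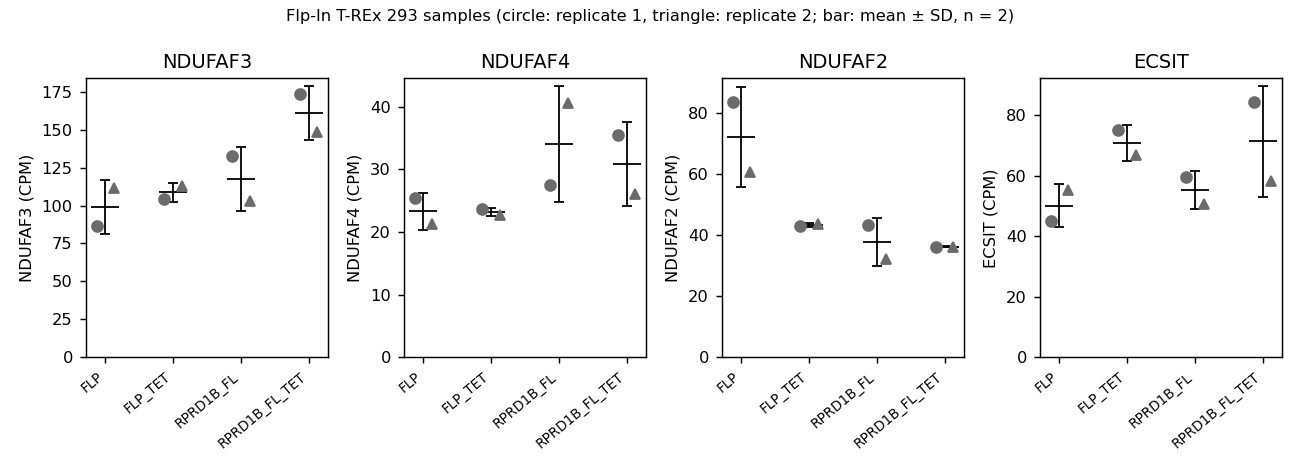
NDUFAF3, NDUFAF4, NDUFAF2 and ECSIT in CPM in the 8 Flp-In samples, by group, with replicate 1 as circles, replicate 2 as triangles and bars for the mean ± SD (n = 2). NDUFAF3 is highest in RPRD1B_FL_TET (174 and 148.5 CPM), and NDUFAF2 is highest in FLP (83.6 and 60.6 CPM).

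Ordered by group mean over all 12 groups, NDUFAF3 ran from control (168 CPM), RPRD1B_FL_TET (161), RPRD1B_KD (144), RPRD2_KD (140.3), RPRD1B_RPRD2_KD (127), RPRD1A_RPRD2_KD (119.5), RPRD1B_FL (118), FLP_TET (109), RPRD1A_KD (105) and FLP (98.9) to RPRD1A_RPRD1A_KD (72.3) and RPRD1A_RPRD1B_RPRD2_KD (66.9 CPM). Neighbours in this order overlapped in their samples, except FLP and RPRD1A_RPRD1A_KD. Thus only the last 2 groups were set off from the one before, and the 2 cell lines are interleaved. The gap was narrow: the highest RPRD1A_RPRD1A_KD sample was at 82.1 CPM, and the lowest of RPRD1A_KD and FLP were at 83.6 and 86.2 CPM. Line and library preparation cannot be told apart, and the gene was chosen for low levels in RPRD1A-labelled groups, so this order is a description.

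The genes next to NDUFAF3 were at similar levels in both sets of HEK293T groups. In the 4 RPRD1A-labelled groups against the other 4, the overlapping DALRD3 differed by 0.05 on the log2 scale, IMPDH2, an enzyme of guanine nucleotide synthesis, by 0.04, QRICH1 by 0.08 and WDR6 by 0.16. None of these 4 neighbours passed in any of the 15 comparisons (lowest edgeR adjusted p = 0.191). DALRD3 had only 9 to 61 counts per sample, and like NDUFAF3 it was higher in replicate 2 in most groups (7 of 8). Whether the authors' counting used the strand is not given in the sources used here, and reads in the overlap could be split between the 2 genes or set aside as ambiguous. The annotated 3′ ends of both genes, where these libraries read, lie outside the overlap.

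The genes most like NDUFAF3 over the 16 HEK293T samples, by Pearson's r of log2(CPM + 1) among 8798 genes with a mean of 10 CPM or more, were ORMDL2, a regulator of sphingolipid synthesis (r = 0.92), EMG1 (r = 0.88) and RRP7A (r = 0.86), both of ribosome biogenesis, TMEM141 (r = 0.87), and PPCDC, an enzyme of coenzyme A synthesis (r = 0.86). At the other end of the order was SCOC (r = -0.87). These points share libraries and the difference between replicate numbers, so the values are descriptions. With the 8 group means in place of samples, 0 of those 5 genes remained among the highest 5, though their r was still 0.86 to 0.93. In 3 other settings (without the library that stood apart, a pseudocount of 5, and Spearman's rho), 4 of the 5 remained in each. ORMDL2 was at 23.5 to 69.2 CPM (median 45.6) in the RPRD1A-labelled samples and 46.0 to 80.1 CPM (median 59.4) in the others, so its groups overlapped. RPRD1A itself ranked 86th (r = 0.70), and 38th (r = 0.78) without the library that stood apart. The assembly factor NDUFAF8, a partner of NDUFAF5, ranked 7th (r = 0.84), at 463 to 791 CPM, but it differed between the RPRD1A-labelled and other groups by only -0.11 on the log2 scale (SE 0.10, edgeR adjusted p = 1). The longest transcripts of NDUFAF3 and NDUFAF8 are both GC-rich, above 95.4% and 94.0% of genes. The correlation of a library's deviation with GC ran from -0.23 to 0.34 in HEK293T cells. Whether GC content bears on these r values was not tested. Among the other 9 genes of the set r ran from -0.52 (TMEM126B) to 0.40 (ACAD9), and it was 0.34 for the binding partner NDUFAF4.

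The rest of the complex I genes were read from lists put together with earlier results of these data known. Of 12 other assembly factors, all tested, 0 passed in any of the 15 comparisons, which called 0.0% to 1.18% of all genes. Of 37 nuclear genes for complex I subunits, 35 had enough counts, and 3 of them passed in 1 comparison or more, all among the Flp-In groups: 1 each in RPRD1B_FL_TET against FLP_TET and RPRD1B_FL against FLP, and 2 in FLP_TET against FLP, where 1.11%, 1.18% and 1.02% of all genes were called. The 37 mitochondrially encoded gene names, ND subunits included, are listed at 0 in every sample and gave no values. In the RPRD1A-labelled groups against the others, the median log2 difference was -0.08 for the 10 genes, -0.09 for the 12 other factors, 0.02 for the 35 subunits and near 0 for all genes (-0.004).

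NDUFS6, a zinc-binding subunit of the peripheral arm whose gene is on chromosome 5, was at 1101 and 1134 CPM in FLP and 1010 and 1032 CPM in FLP_TET, against 506.5 and 449 CPM in RPRD1B_FL and 526 and 452 CPM in RPRD1B_FL_TET. The RPRD1B line was lower in every sample, whether or not tetracycline was given. NDUFS6 fell by 1.21 without tetracycline (SE 0.15, edgeR adjusted p = 5.10e-05) and by 1.05 with it (SE 0.15, edgeR adjusted p = 2.84e-04), and both calls held under all alternatives run. In FLP_TET against FLP, NDUFA1, a small membrane subunit, fell by 0.83 (SE 0.19, edgeR adjusted p = 0.0468) and NDUFA9, a subunit at the junction of the 2 arms, rose by 0.78 (SE 0.18, edgeR adjusted p = 0.0468). NDUFA1 was at 468.5 and 264 CPM in FLP, and without the first of these samples its difference was -0.36 (edgeR adjusted p = 0.638). The NDUFA9 call was also lost without that sample (0.58, edgeR adjusted p = 0.629), as both were without either FLP_TET sample.

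**Figure D4:**
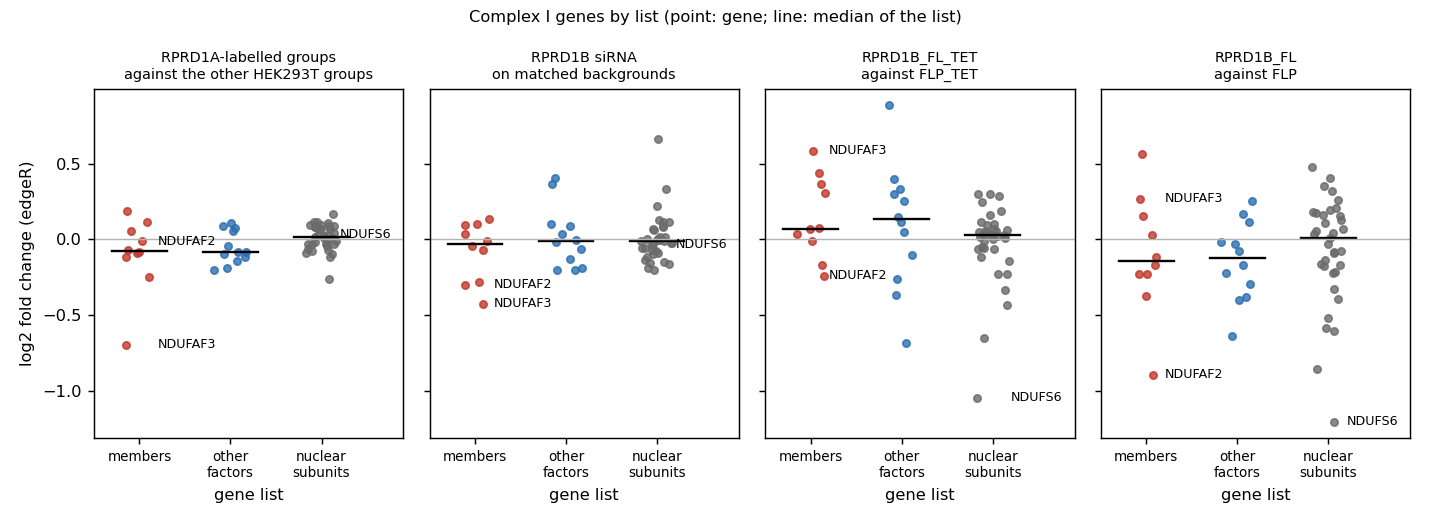
Log2 fold changes from edgeR of the 10 genes (members), 12 other assembly factors and 35 nuclear subunit genes in 4 comparisons, with each gene as a point and each list's median as a line. NDUFAF3 lies apart from the other assembly factors in the RPRD1A-labelled groups (-0.70), the comparison for which it was chosen, and NDUFS6 lies lowest in both comparisons of the RPRD1B line with its parent (-1.05 and -1.21).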

How the data were processed

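Counts of reads per gene name in 24 human cell-line samples, deposited by the authors as one table per sample (58138 names and 5 closing rows), were used as they stand. FastQC, STAR, HTSeq, DESeq2 and GRCh38 are listed, without versions, per the submitters' processing notes; the annotation, strand setting and filters are not given in the sources used here. The closing rows were left out of library sizes (reads outside genes 15.3% to 36.7%, ambiguous reads 1.30% to 1.83% of all rows). The counts carry no molecular identifiers, so floors cover counting error only.

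In R 4.3.3 with edgeR 4.0.16, all samples of a cell line entered one fit: filterByExpr (minimum count 10, minimum total 15), TMM scaling, glmQLFit and glmQLFTest, with Benjamini-Hochberg adjustment over all genes and a threshold of 0.05. SE was obtained by dividing the size of a log2 fold change by the root of its F statistic. The replicate number was not part of the main fit. A gene is called when its adjusted p is under the threshold. CPM is plain, not TMM-scaled, and SD is over 2 samples. The script was tested on simulated counts. Samples of a group differed by more than sampling noise (chi-square per degree of freedom 2.01 to 10.7).

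The members and lists were chosen with earlier results of these data known. Genes named are the members, the 3 RPRD genes, the 5 genes most and 2 least like NDUFAF3, the 2 nearest protein-coding genes on each side of it, and up to 3 called genes per direction of each complex I list. Some genes that these rules or lists name are not reported here. Alternatives were RLE factors, DESeq2 1.42.0, no filter, a mean count of 50 or more, only the groups compared, a replicate block, a GC correction (lowess, span 0.3), and leaving out each sample; averaging only the 2 matched pairs without RPRD1A siRNA was added after seeing the data. Sequences and start windows are from RefSeq (GRCh38.p14).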

Additional observations from a re-analysis of the deposited data

How the results depend on the processing

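NDUFAF3 kept its sign in the RPRD1A-labelled groups in each of the 4 comparisons with the control and in their average under every alternative run. The 9 other genes gave 0 calls in those comparisons under every alternative. NDUFAF3 changed sign in FLP_TET against FLP with the GC correction (-0.139, and -0.138 with the GC correction and replicate block), and in the RPRD2 matched pairs when single samples were left out (-0.188 to 0.015, with 0.014 and 0.015 without replicate 2 of RPRD1B_KD and of RPRD1A_KD). Counts of calls among the 10 genes moved as follows. In RPRD1B_FL_TET against FLP_TET the count was 0, but 1 (NDUFAF3) with the GC correction, 1 with the GC correction and replicate block, and 0 to 1 when single samples were left out. In RPRD1B_FL against FLP it was 1 (NDUFAF2), and 0 to 1 when single samples were left out. In FLP_TET against FLP it was 0, but 1 (NDUFAF2) without the filter, 2 (NDUFAF2 and ECSIT) with only the groups compared, and 0 to 1 when single samples were left out. Counts over all genes moved more. FLP_TET against FLP gave 122 calls, but 250 with DESeq2, 762 without the filter, 0 at a mean count of 50 or more, 1273 with only the groups compared, and 0 to 681 when single samples were left out. RPRD1B_FL_TET against FLP_TET gave 133, but 88 with DESeq2, 229 without the filter, 79 at a mean count of 50 or more, 262 with the GC correction, and 28 to 232 when single samples were left out. RPRD1B_FL against FLP gave 141, but 292 without the filter, 304 with the GC correction, and 40 to 240 when single samples were left out. The 4 RPRD1A-labelled groups against the other 4 gave 8, but 15 with DESeq2, 18 without the filter, and 140 without replicate 1 of RPRD1A_RPRD2_KD. RPRD1A_RPRD2_KD against control gave 1, but 5 with DESeq2, 87 without the filter, and 573 without that group's replicate 1, which leaves the library that stood apart as its only sample. The cause of these moves was not tested.

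The replicate number was left out of the main fit, since no label says that it marks a shared batch. Correlations of same-numbered deviations averaged 0.33 over 28 pairs of HEK293T groups (-0.01 to 0.52) and -0.02 over 6 pairs of Flp-In groups (-0.36 to 0.46). The lowest HEK293T value was between control and RPRD1A_RPRD2_KD, which holds the library that stood apart. Reads outside genes were 34.3% to 36.7% in HEK293T replicate 1 libraries and 27.4% to 29.8% in replicate 2 libraries. The main HEK293T fit counts differences between the numbers as spread. With the replicate block, the RPRD1B matched pairs gave 1 call instead of 0 (NDUFAF3, -0.43). However, 1 of those pairs consists of groups for which the gene was chosen. The control, in another of the pairs, was on the higher side of that choice. This call is therefore no test of NDUFAF3, and its value is a description. Over the 2 pairs without RPRD1A siRNA, an alternative chosen after seeing the data, the block gave 0 calls among the 10. NDUFAF3 was at -0.21 for RPRD1B (SE 0.09, unadjusted p = 0.0323 and adjusted p = 0.885 from edgeR). For RPRD2 it was at -0.23 (SE 0.09, unadjusted p = 0.0204 from edgeR), which did not pass after adjustment either. Without the block the SE was 0.18 in both. Over all genes 5.4% and 4.43% had an unadjusted p under 0.05 in these blocked fits. The block raised the calls over all genes in the 3 RPRD1B matched pairs from 3 to 11. It raised those of the 4 RPRD1A-labelled groups against the other 4 from 8 to 26, and lowered those of FLP_TET against FLP from 122 to 1. It changed no other count for the 10 genes. For genes such as NDUFAF5, with 16 to 49 counts per sample, the depth limits what could be seen.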
